A study of Mus musculus with 37 samples.

Results

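Mouse cardiac fibroblasts (CFs) that had spent 48 h in myocyte conditioned medium (MCndM) prepared with AMP, or with ENPP1 and ATP, were compared with CFs that had spent 24 h in the same media. The comparison took every CF library of these 2 media, which is 8 of the 37 samples of the series: 4 libraries at 48 h and 4 at 24 h, with 2 libraries for each medium at each time. The medium was a term of the model, so each 48 h library was set against 24 h libraries of its own medium. The question addressed was how the transcriptome of CFs moved on between the first and the second day in media that carry the products of AMP-exposed myocytes.

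In the study, neonatal rat ventricular myocytes received vehicle, recombinant ENPP1, ATP, ENPP1+ATP or AMP, and the medium they conditioned was transferred to CFs grown without myocytes. ENPP1 is an ectonucleotidase that splits extracellular ATP into AMP and pyrophosphate, so AMP and ENPP1+ATP are called the AMP-producing media here, and the vehicle, ENPP1 and ATP media are called the other 3 media. All CFs came from immortalized cardiac fibroblasts of wild-type C57BL/6 mice, and all had been kept in serum-free medium with insulin, transferrin and selenium for 24 h before MCndM was added. The CFs are a cell line immortalized with the SV40 antigen, so they stand for 1 immortalized line rather than for fibroblasts of several hearts, and every medium, vehicle included, had been on myocytes.

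Between 24 h and 48 h in the AMP-producing media, relative levels fell for all 34 measured genes of sterol and fatty acid synthesis. They also fell for 64 of 69 mitotic genes, 30 of 35 genes of the ATF4 response and 21 of 30 immediate early genes. Relative levels rose for 74 of 77 cytosolic ribosomal protein genes and 16 of 24 matrix proteases and inhibitors. So did those of 21 of 29 contractile genes and 26 of 42 genes of TGF-beta and BMP signalling. Of 17879 genes tested, 9396 changed, which was 52.6% of them: 4670 rose (26.1%) and 4726 fell (26.4%). A total of 677 genes rose and 972 fell by at least 1 on the log2 scale. The test was edgeR's quasi-likelihood test fitted over all 20 CF libraries with Benjamini-Hochberg adjustment and a threshold of 0.05, and every adjusted p-value for a gene in the text comes from it. Levels are CPM, the counts of a gene scaled to a common library size after TMM scaling, fold changes are 48 h over 24 h on the log2 scale, and errors are standard errors of the fit, with 4 libraries at each time unless a single medium is named. The labels do not say whether replicate libraries came from separate cultures, so p-values measure the spread between these libraries, which may be technical.

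Over the same interval, 4342 genes (24.3%) changed in the other 3 media, 2024 upward and 2318 downward, and 40 of these rose and 69 fell by at least 1 on the log2 scale. The time change differed between the AMP-producing media and the other 3 media for 8101 genes (45.3%). The first principal component of the 20 CF libraries separated the AMP-producing media from the other 3 and the second separated 24 h from 48 h within the AMP-producing media. On the first component the ATP libraries lay between the AMP-producing media and the vehicle and ENPP1 libraries, so the mean of the other 3 media pools media that are not alike.

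**Figure D1:**
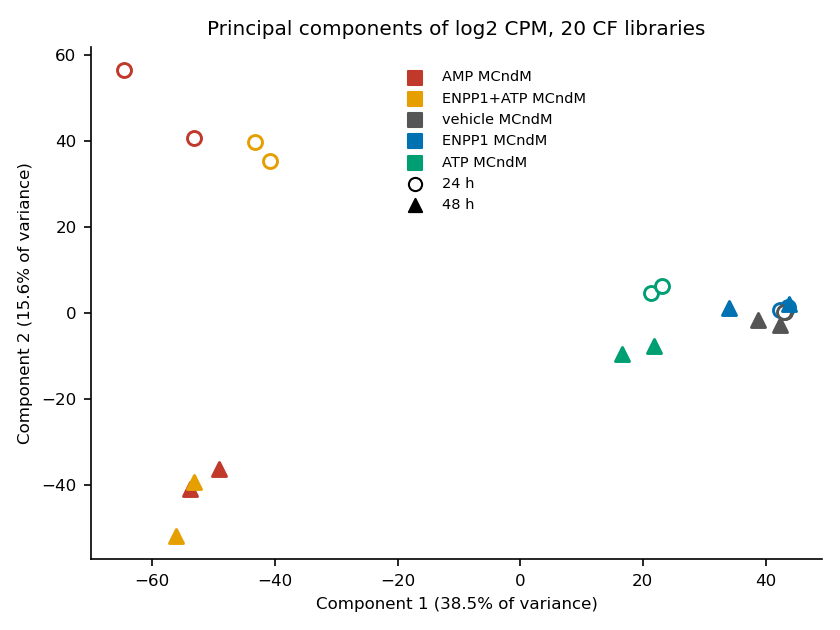
Principal components of log2 CPM for the 20 CF libraries, with component 1 (38.5% of the variance) on the x axis and component 2 (15.6%) on the y axis, 1 point per library, open circles at 24 h and filled triangles at 48 h, coloured by medium. On component 2 the 4 libraries of the AMP-producing media at 24 h lie between 35.4 and 56.5 and the 4 at 48 h between -51.8 and -36.2, whereas all 12 libraries of the other 3 media lie between -9.51 and 6.33.

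The 8 libraries held 38478640 to 74110869 counts each, against 32184799 to 115824659 over all 20 CF libraries. Replicate libraries of a group differed by more than counting noise, with a mean chi-square per degree of freedom of 6.34 to 36.5 over the 10 groups, so no library looked like a second deposit of another. The fibroblast label was checked against markers: 14 of 15 fibroblast markers passed the low-count filter, Col1a1 stood at 1942 to 2459 CPM and Vim at 1144 to 2122 CPM, whereas Thy1 reached at most 7 counts and Pdgfra 10.1 CPM. Macrophage markers were nearly absent, with 4 of 15 tested and Ptprc, Adgre1 and Itgam at 4, 2 and 1 counts at most, although Cd68, a lysosomal protein, rose. Their summed level ran from 34.6 to 62.1 CPM at 24 h and from 73.2 to 88.6 CPM at 48 h. Smooth muscle and pericyte markers summed to 349 to 368 CPM at 24 h and 574 to 653 CPM at 48 h, with Notch3 alone at 158 to 176 CPM and 349 to 418 CPM. Endothelial markers summed to 664 to 740 CPM at 24 h and 843 to 876 CPM at 48 h, nearly all of it Eng, while Cdh5 and Cldn5 reached at most 11 and 4 counts. In the other 3 media the endothelial sum was 676 to 770 CPM at 24 h and 525 to 662 CPM at 48 h. The part of these markers in other results was not tested. Mitochondrially encoded RNA took 2.46% to 3.87% of the counts at 24 h and 4.34% to 5.37% at 48 h, against 2.02% to 2.32% in the other 3 media. The paper reports that CFs died in the AMP-producing media. Whether the 48 h libraries hold RNA of surviving or of dying cells was not tested. A change between 24 h and 48 h therefore need not be a change within the same cells. In bulk RNA, fewer cells of a kind and less RNA per cell cannot be told apart. The libraries give no count of the cells that were lost or kept.

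**Figure D2:**
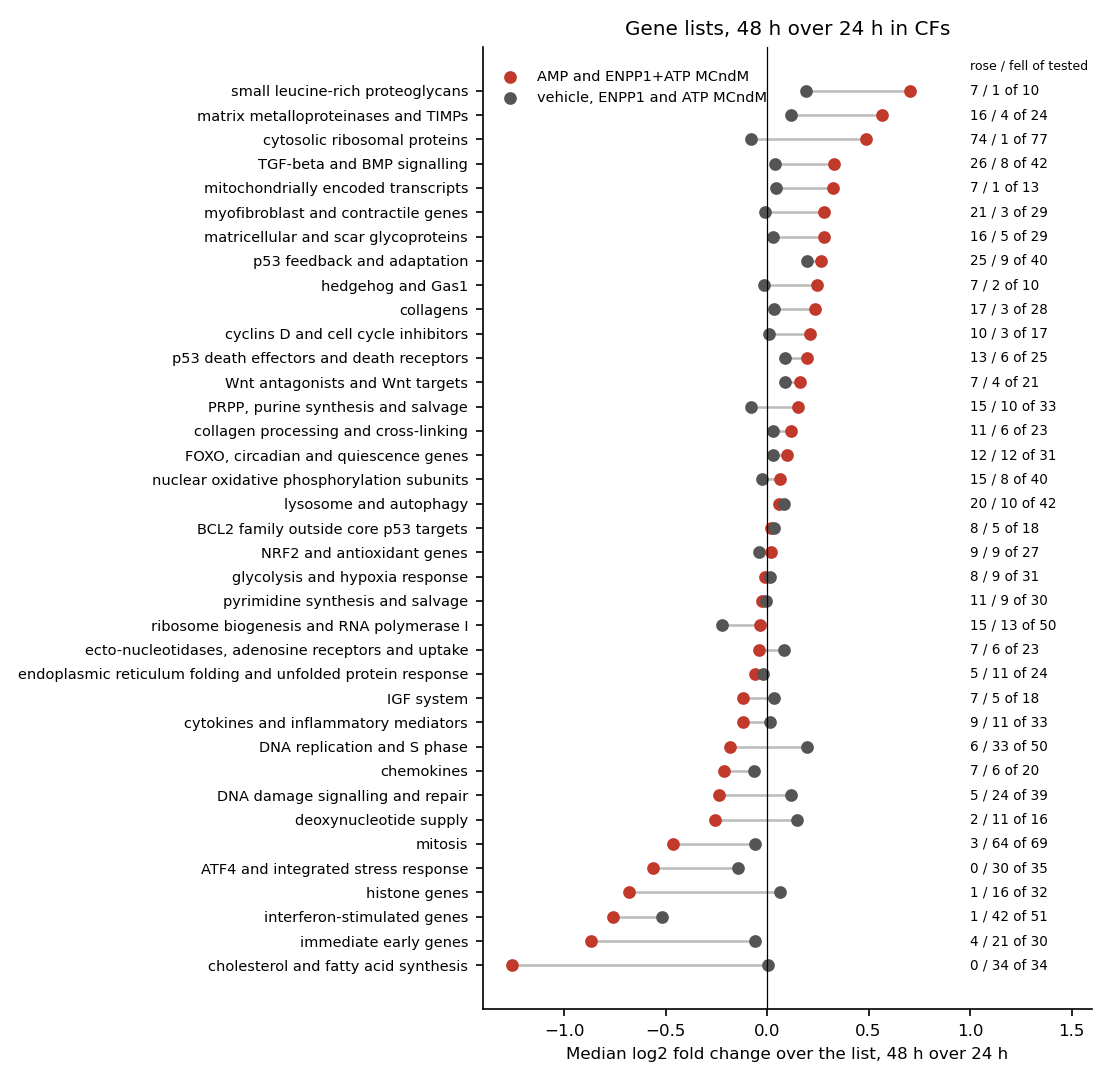
Median log2 fold change, 48 h over 24 h, of 37 gene lists on the x axis, 1 row per list, with red points for the AMP-producing media and grey points for the other 3 media, and the number of members that rose and fell in the AMP-producing media at the right. The sterol list lies farthest to the left at -1.26 with a grey point at 0.00, where the medians of all genes tested are 0.00 and 0.01.

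Sterol synthesis begins with acetyl-CoA, passes through mevalonate and the isoprenoids, and ends in cholesterol. Its genes, with many of fatty acid synthesis, are transcribed under SREBP factors, which cells release from the endoplasmic reticulum when sterols run low and retain when sterols are ample. In CFs of the AMP-producing media all 34 genes of this list fell between 24 h and 48 h, and for all 34 the 48 h and 24 h libraries did not overlap, where 26.4% of all tested genes fell and 38.4% had times that did not overlap, with 19.3% of all genes lower at 48 h. The median of the list was -1.26, against 0.00 over all genes. In the other 3 media the list had a median of 0.00, with 5 genes higher and 2 lower, and the time change was lower in the AMP-producing media for all 34 genes.

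The promoters of 3 genes are shown because these genes fell together and the windows lie wholly before the annotated gene start. Each holds the 250 bases before the transcription start given by RefSeq (GRCm38.p6), 5′ to 3′ on the strand of the gene, in lower case with each CCAAT box, the letters CCAAT or their reverse complement, in capitals. Hmgcs1 lies at chr13:119690101-119690350 on the plus strand, Mvk at chr5:114444019-114444268 on the plus strand and Mvd at chr8:122443423-122443672 on the minus strand.
Hmgcs1: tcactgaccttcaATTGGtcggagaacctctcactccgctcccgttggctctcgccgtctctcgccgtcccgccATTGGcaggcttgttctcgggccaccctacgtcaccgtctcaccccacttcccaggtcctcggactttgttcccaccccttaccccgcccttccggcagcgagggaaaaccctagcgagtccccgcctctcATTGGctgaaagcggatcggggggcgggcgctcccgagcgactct
Mvk: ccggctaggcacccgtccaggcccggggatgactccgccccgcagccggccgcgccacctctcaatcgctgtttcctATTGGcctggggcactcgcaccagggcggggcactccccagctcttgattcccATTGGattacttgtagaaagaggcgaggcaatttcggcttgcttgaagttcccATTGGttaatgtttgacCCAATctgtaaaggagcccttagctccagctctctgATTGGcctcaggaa
Mvd: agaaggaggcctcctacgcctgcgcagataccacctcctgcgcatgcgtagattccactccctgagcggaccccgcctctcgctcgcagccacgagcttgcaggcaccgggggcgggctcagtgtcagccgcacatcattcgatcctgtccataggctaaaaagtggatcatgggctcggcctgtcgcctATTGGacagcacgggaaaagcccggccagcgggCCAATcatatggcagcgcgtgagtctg
The CCAAT box was found 3 times before Hmgcs1, 5 times before Mvk and 2 times before Mvd. Of the 23 genes of the list with a window in the table, 19 held it (82.6%), where 37.5% of 27025 genes with a window did. The E-box CACGTG, searched on both strands, was in 4 of the 23 (17.4%) against 6.86% of all. These matches describe letters and say nothing of binding.

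Lss encodes lanosterol synthase, which closes the sterol ring system, and lies at chr10:76531588-76557138 (mm10, plus strand). Its levels were 295 and 280 CPM in AMP MCndM and 314 and 308 CPM in ENPP1+ATP MCndM at 24 h, and 56.1, 50.8, 56.0 and 53.9 CPM in the same order at 48 h. All 4 libraries at 48 h lay far below all 4 at 24 h, in both media. The change was -2.46 ± 0.05 (adjusted p = 3.88e-22), a level 5.51-fold lower, while the other 3 media ran from 326 to 401 CPM at 24 h and from 354 to 454 CPM at 48 h. The time change of Lss differed from that of the other 3 media by -2.50 (adjusted p = 3.93e-20).

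Upstream of it, Hmgcs1, the synthase that makes HMG-CoA, fell by 1.30 on the log2 scale. Mvk, mevalonate kinase, stood at 140, 127, 140 and 136 CPM at 24 h and at 35.5, 33.9, 32.2 and 33.7 CPM at 48 h, with a change of -2.01 ± 0.04 (adjusted p = 8.68e-22). Idi1, the isomerase that makes dimethylallyl pyrophosphate, went from 135, 118, 152 and 146 CPM to 31.2, 24.9, 30.7 and 26.8 CPM, a change of -2.27 ± 0.06 (adjusted p = 7.86e-16). Fdps, farnesyl pyrophosphate synthase, fell from 18.1 to 20.1 CPM at 24 h to 2.81 to 4.59 CPM at 48 h. Pmvk and Mvd of the same segment fell by 1.63 and 1.31 on the log2 scale.

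Fdft1, squalene synthase, fell by 1.2 and Sqle, squalene epoxidase, by 0.93 on the log2 scale. Tm7sf2, a sterol reductase, changed by -2.30 ± 0.08, from between 14.7 and 17.8 CPM to between 2.36 and 4.06 CPM. Cyp51, Msmo1, Nsdhl, Hsd17b7 and Dhcr7, which demethylate, oxidize or reduce the sterol rings, fell by 1.73, 1.72, 1.39, 1.66 and 1.67 on the log2 scale. The smallest falls among the ring enzymes were those of Ebp and Sc5d, at -0.55 and -0.78. Sterol transport and control genes fell as well: Insig1, which retains SREBP in the endoplasmic reticulum, by 1.72, Stard4, a sterol carrier, by 0.76, and the factors Srebf1 and Srebf2 by 0.37 and 0.67 on the log2 scale.

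Of the fatty acid genes, Fasn, fatty acid synthase, stood at 1160, 1155, 1507 and 1345 CPM at 24 h and at 665, 677, 660 and 632 CPM at 48 h, a change of -0.96 ± 0.05 (adjusted p = 1.01e-14). Acly, which makes cytosolic acetyl-CoA, fell by 1.01, the desaturases Scd1 and Scd2 by 0.52 and 1.24, the elongase Elovl6 by 1.27, Fads1 and Fads2 by 0.56 and 0.64, and Acaca and Me1 by 0.28 and 0.21 on the log2 scale. For 3 genes of the list, Acly, Fasn and Scd2, the fall was steeper in ENPP1+ATP MCndM than in AMP MCndM, by 0.29, 0.36 and 0.33, with adjusted p-values of 0.0439, 0.0358 and 0.0266. At 24 h Hmgcs1 was already below the other 3 media and stood at 189 to 226 CPM against 488 to 826 CPM.

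**Figure D3:**
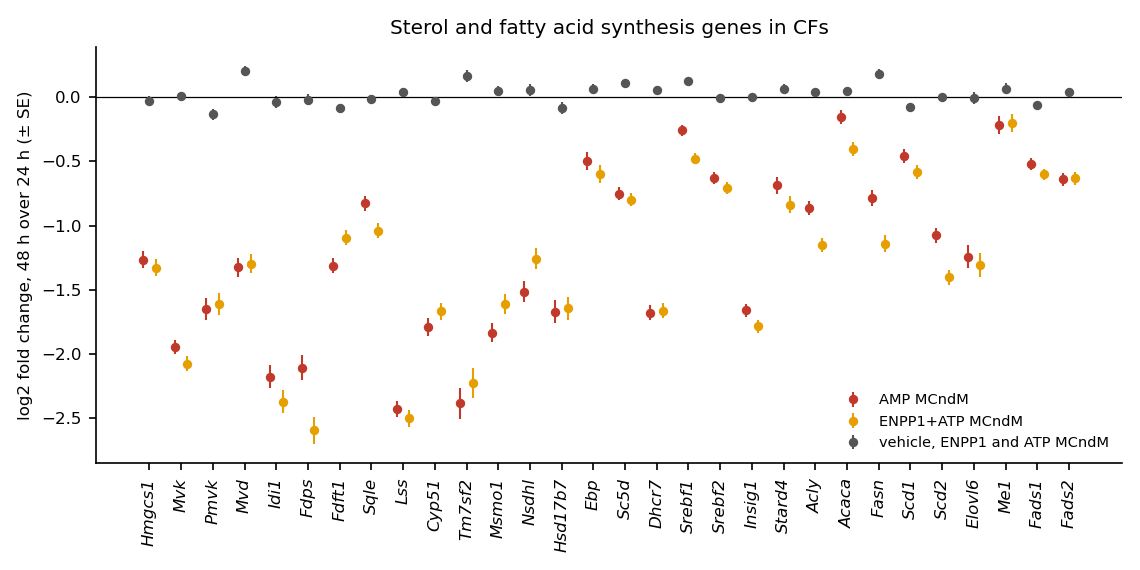
Log2 fold change, 48 h over 24 h, ± SE, of 30 sterol and fatty acid synthesis genes (x axis, in the order of the list), in AMP MCndM (red), ENPP1+ATP MCndM (orange) and the mean of the other 3 media (grey). All 30 genes lie below 0 in both AMP-producing media, down to -2.59 for Fdps in ENPP1+ATP MCndM, and the grey points lie between -0.14 and 0.20.

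Mitotic genes are transcribed late in the cell cycle, and replication genes from the border of G1 and S phase. Of 69 mitotic genes 64 fell, 3 rose and the median was -0.46, while in the other 3 media 15 rose, 29 fell and the median was -0.06. The time change was lower in the AMP-producing media than in the other 3 for 50 mitotic genes and higher for 4, where 22.5% and 22.8% of all tested genes were. Mki67, the proliferation antigen Ki-67 at chr7:135689784-135716361, stood at 1676, 1432, 1699 and 1453 CPM at 24 h in AMP and then ENPP1+ATP MCndM and at 678, 709, 780 and 738 CPM at 48 h. The 2 sets did not overlap, and the change was -1.11 ± 0.05 (adjusted p = 8.67e-15). At both times Mki67 was above the other 3 media, which held 384 to 416 CPM at 24 h and 438 to 478 CPM at 48 h.

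The largest mitotic falls beside Mki67 were those of Ska1, a kinetochore protein, at -1.12, and Pbk, a mitotic kinase, at -1.12. Ccnb1, cyclin B1, fell by 0.18 on the log2 scale and fell in the other 3 media too, by 0.26. The 3 mitotic genes that rose were Gtse1, Bub3 and Cdc20, at 0.22, 0.20 and 0.10, of which Cdc20 kept its call in 9 of 15 alternative fits. Gtse1, a protein that binds p53, ran from 370 to 471 CPM at 24 h and from 473 to 500 CPM at 48 h.

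The promoter of Mki67 is given with the CCAAT box and the CHR element TTTGAA, searched on both strands, in capitals (RefSeq, GRCm38.p6, chr7:135716380-135716629, minus strand, the 250 bases before the start).
Mki67: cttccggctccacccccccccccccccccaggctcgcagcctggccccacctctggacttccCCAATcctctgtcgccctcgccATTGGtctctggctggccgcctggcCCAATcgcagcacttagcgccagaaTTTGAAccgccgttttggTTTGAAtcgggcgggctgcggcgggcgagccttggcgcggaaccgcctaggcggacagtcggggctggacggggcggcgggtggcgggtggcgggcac
It held 2 CHR elements and 3 CCAAT boxes. Of 56 mitotic genes with a window, 40 held a CCAAT box (71.4%, against 37.5% of all genes) and 19 a CHR element (33.9%, against 18.3%).

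Of 50 DNA replication genes 33 fell and 6 rose, with a median of -0.18. In the other 3 media the same list had a median of 0.20, with 42 genes higher and none lower, so that the time change was lower in the AMP-producing media for 41 genes and higher for none. E2f2 and E2f8, transcription factors of the E2F family, fell by 0.85 and 0.69 and Mcm10, a replication initiation factor, by 0.65 on the log2 scale. The helicase subunit genes moved little. Mcm4 rose by 0.20 and Mcm5 by 0.09 (adjusted p = 0.0237), the latter from 256 to 270 CPM at 24 h to between 271 and 290 CPM at 48 h with no overlap, and Mcm5 kept its call in 11 of 15 alternative fits. The E2F site, TTTCGCGC or TTTGGCGC on either strand, was in 7 of 39 replication genes with a window (17.9%), against 0.759% of all genes.

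Among the 32 histone genes tested 16 fell and 1 rose, with a median of -0.68 and 15 of 32 not called. Hist1h1c, a linker histone, stood at 43.4, 49.8, 29.3 and 38.6 CPM at 24 h and at 23.2, 19, 19.7 and 15.4 CPM at 48 h, a change of -1.05 ± 0.09. Most replication-dependent histone messages lack a poly(A) tail and their family members are near-identical, so single members are uncertain. DNA damage and repair genes fell in 24 of 39 cases and rose in 5, with a median of -0.23 against 0.12 in the other 3 media. H2afx, the histone variant that is phosphorylated at DNA breaks, fell from 239 to 289 CPM to 126 to 146 CPM, a change of -0.97 ± 0.06. Rad51ap1 and Fancd2, which act in recombination repair, fell by 0.79 and 0.69, while Msh6, a mismatch repair protein, rose by 0.47 on the log2 scale.

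Cells make deoxynucleotides by reducing ribonucleotides and adding a folate-borne methyl group. Of 16 genes of deoxynucleotide supply 11 fell and 2 rose, with a median of -0.26 and one of 0.15 in the other 3 media. Mthfd2 and Shmt2, mitochondrial folate enzymes that are also ATF4 targets, fell by 1.03 and 0.81, and Rrm2b, the ribonucleotide reductase subunit induced by p53, by 0.68 on the log2 scale. Rrm2, the subunit of S phase, did not pass the test, with 235 to 261 CPM at 24 h and 225 to 247 CPM at 48 h, a change of -0.07 ± 0.04 (adjusted p = 0.22). In the other 3 media Rrm2 rose by 0.44, and the time change differed by -0.51 (adjusted p = 9.94e-08).

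Pyrimidine synthesis and salvage genes moved in both directions, 11 higher and 9 lower of 30 with a median of -0.03, where 26.1% of all tested genes rose and 26.4% fell. Cad, the enzyme that starts pyrimidine synthesis, rose from 197, 210, 189 and 186 CPM to 254, 279, 223 and 258 CPM, a change of 0.37 ± 0.04 (adjusted p = 6.16e-08), with no change called in the other 3 media (0.03). Umps, which makes UMP at the end of the pathway, did not pass the test, at -0.08 (adjusted p = 0.0525), a side of the threshold that it kept in 13 of 15 alternative fits. Dck, which salvages deoxycytidine, fell by 0.40 and Cmpk2, a mitochondrial nucleotide kinase induced by interferon, by 1.5 on the log2 scale. Of 33 purine and PRPP genes 15 rose and 10 fell, with a median of 0.15. Aprt, which returns adenine to AMP, rose from 65.4 to 93.8 CPM to 126 to 148 CPM, a change of 0.82 ± 0.04, and Ada, adenosine deaminase, rose by 0.73. Prps1, which makes PRPP, and Ppat, the first enzyme of purine synthesis, fell by 0.37 and 0.30 on the log2 scale.

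The factor p53 restrains its own activity through Mdm2 and halts the cell cycle through Cdkn1a, and it also drives death genes. Of 40 p53 feedback and adaptation genes 25 rose and 9 fell with a median of 0.26, and in the other 3 media 24 rose and 4 fell with a median of 0.20. The time change was higher in the AMP-producing media for 19 and lower for 10, where 22.8% and 22.5% of all tested genes were. Cdkn1a, the inhibitor p21 at chr17:29090976-29100727, stood at 624, 631, 460 and 498 CPM at 24 h and at 789, 815, 731 and 816 CPM at 48 h. Its change was 0.52 ± 0.10 (adjusted p = 0.000682). By medium, Cdkn1a rose by 0.69 in ENPP1+ATP MCndM (adjusted p = 0.00169). Its change of 0.35 in AMP MCndM did not pass the test (adjusted p = 0.0566), nor did the difference between these media (adjusted p = 0.4). In the other 3 media it rose too, from 115 to 261 CPM to 138 to 387 CPM and by 0.42, and the difference of 0.10 between the 2 time changes did not pass the test (adjusted p = 0.559). Mdm2, the ubiquitin ligase of p53 at chr10:117688875-117710758, stood at 695, 693, 530 and 521 CPM at 24 h and at 973, 1037, 982 and 1025 CPM at 48 h. Its change of 0.73 ± 0.05 (adjusted p = 4.91e-12) exceeded that of the other 3 media by 0.47 (adjusted p = 9.53e-07).

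Further feedback genes rose, with Ephx1, an epoxide hydrolase, at 1.27, Zmat3 at 0.89 and Psrc1 at 0.80. The 3 largest of the 9 falls were those of Gadd45b, Plk3 and Gadd45a, stress-responsive genes, at -1.59, -1.22 and -0.77. Of 25 death effectors and receptors 13 rose and 6 fell, with a median of 0.20 against 0.09 in the other 3 media. Of all genes tested, 26.1% rose and 26.4% fell in the AMP-producing media. Bax, the pore-forming BCL2 family member, rose from 58.2 to 78.8 CPM to 89.3 to 107 CPM, a change of 0.47 ± 0.05, and Fas, a death receptor, rose by 0.70. Perp rose by 1.25 at levels under 8 CPM. Bbc3, which encodes PUMA, did not pass the test, with 30.4 to 39.2 CPM at 24 h and 32 to 37.0 CPM at 48 h (0.03 ± 0.07, adjusted p = 0.695). The anti-death gene Bcl2 rose from 10.0 to 12.6 CPM to 13.8 to 18.2 CPM, a change of 0.55 ± 0.07, and Shisa5 fell by 0.80. Bcl2 had a mean of 19.2 CPM at 24 h and 18.4 CPM at 48 h in the other 3 media, so it did not rise above them.

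Interferon-stimulated genes restrict viruses and report on type I interferon signals. Of 51 members 42 fell and 1 rose, with a median of -0.76. In the other 3 media 46 fell and 1 rose with a median of -0.52. The time change was lower in the AMP-producing media for 22 members, higher for 7 and not called as different for 22. Of all tested genes, 22.5% were lower and 22.8% higher in this test. Rsad2, the antiviral enzyme viperin at chr12:26442746-26456452, stood at 300, 351, 262 and 320 CPM at 24 h and at 68.6, 74.2, 73.1 and 84.2 CPM at 48 h, a change of -2.04 ± 0.10 (adjusted p = 3.65e-09). It also fell in the other 3 media, from 221 to 346 CPM to 131 to 179 CPM, by 0.90, and the time change differed by -1.14 (adjusted p = 1.1e-05). Oasl1, a 2-5A synthetase-like protein, fell by 2.01 and Zbp1, a sensor of Z-form nucleic acids, by 1.86 on the log2 scale. Cxcl10, an interferon-induced chemokine, went from 250, 297, 189 and 209 CPM to 54.0, 59.1, 63.8 and 66.5 CPM, a change of -1.94 ± 0.10, against -1.16 in the other 3 media. Ifitm2 was the member that rose, by 1.04, from 18.8 to 23.6 CPM to 41.5 to 45 CPM.

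The interferon-stimulated response element, searched on both strands, was in 15 of 37 members with a window (40.5%), against 3.46% of all genes. The promoters of Rsad2 (chr12:26456453-26456702), Cxcl10 (chr5:92348890-92349139) and Isg15 (chr4:156200819-156201068), all on the minus strand of GRCm38.p6 and 250 bases long, are shown with the element in capitals. Isg15 was chosen after its values were seen, for a run in which 3 matches overlap.
Rsad2: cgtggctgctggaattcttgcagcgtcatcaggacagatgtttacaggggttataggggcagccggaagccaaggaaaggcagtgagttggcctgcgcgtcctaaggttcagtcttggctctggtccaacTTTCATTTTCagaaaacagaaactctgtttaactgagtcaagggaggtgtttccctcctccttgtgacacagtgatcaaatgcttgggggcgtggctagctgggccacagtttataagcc
Cxcl10: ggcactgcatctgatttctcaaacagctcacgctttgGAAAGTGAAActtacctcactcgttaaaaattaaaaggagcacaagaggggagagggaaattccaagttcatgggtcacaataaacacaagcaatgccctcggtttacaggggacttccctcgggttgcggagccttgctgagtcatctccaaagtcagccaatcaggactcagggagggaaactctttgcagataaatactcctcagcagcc
Isg15: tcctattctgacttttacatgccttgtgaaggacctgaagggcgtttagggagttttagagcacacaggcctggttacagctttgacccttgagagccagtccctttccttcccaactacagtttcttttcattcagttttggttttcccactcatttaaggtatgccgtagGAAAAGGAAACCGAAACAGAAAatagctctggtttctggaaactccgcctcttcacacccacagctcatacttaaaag

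ATF4 is translated when the initiation factor eIF2 is phosphorylated, and it raises genes of amino acid uptake, amino acid synthesis and tRNA charging. Of 35 genes of this response 30 fell and none rose, with a median of -0.56, against 24 lower, none higher and a median of -0.14 in the other 3 media. The time change was lower in the AMP-producing media for 28. Trib3, a pseudokinase that feeds back on ATF4, stood at 95.9, 111, 74.7 and 90.3 CPM at 24 h and at 29.4, 25.3, 21.9 and 25.3 CPM at 48 h. The change was -1.87 ± 0.07 (adjusted p = 1.3e-13), and the other 3 media stayed between 97.5 and 134 CPM over both times. Chac1, which degrades glutathione, fell from 54.8 to 59.8 CPM to 17.7 to 18.1 CPM, by 1.68, and Slc7a11, the cystine transporter, by 1.36 on the log2 scale. The ATF4 site TGATGNAAT was in 4 of 28 members with a window (14.3%), against 0.91% of all genes.

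Immediate early genes are switched on within minutes by growth factors and stress and are transcribed without new protein synthesis. Of 30 tested members 21 fell and 4 rose, with a median of -0.87 against -0.06 in the other 3 media, and the time change was lower in the AMP-producing media for 19 and higher for 5. Egr1, a zinc finger factor, stood at 1115 and 941 CPM in AMP MCndM and at 459 and 486 CPM in ENPP1+ATP MCndM at 24 h, and at 104, 139, 124 and 122 CPM at 48 h. The 2 media differed at 24 h and met at 48 h, where the other 3 media held 56.7 to 120 CPM. The change was -2.51 ± 0.13 (adjusted p = 1.59e-08). Fos, a subunit of AP-1 at chr12:85473890-85477273, went from 85.5, 69, 39.2 and 36.6 CPM to 11.6, 13.6, 11.8 and 10.2 CPM, a change of -2.19 ± 0.09, and Fosb fell by 1.87 on the log2 scale. At 48 h Fos was still above the other 3 media, which held 3.46 to 5.81 CPM. Klf4, Klf10 and Fosl2 rose, by 0.98, 0.70 and 0.62.

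**Figure D4:**
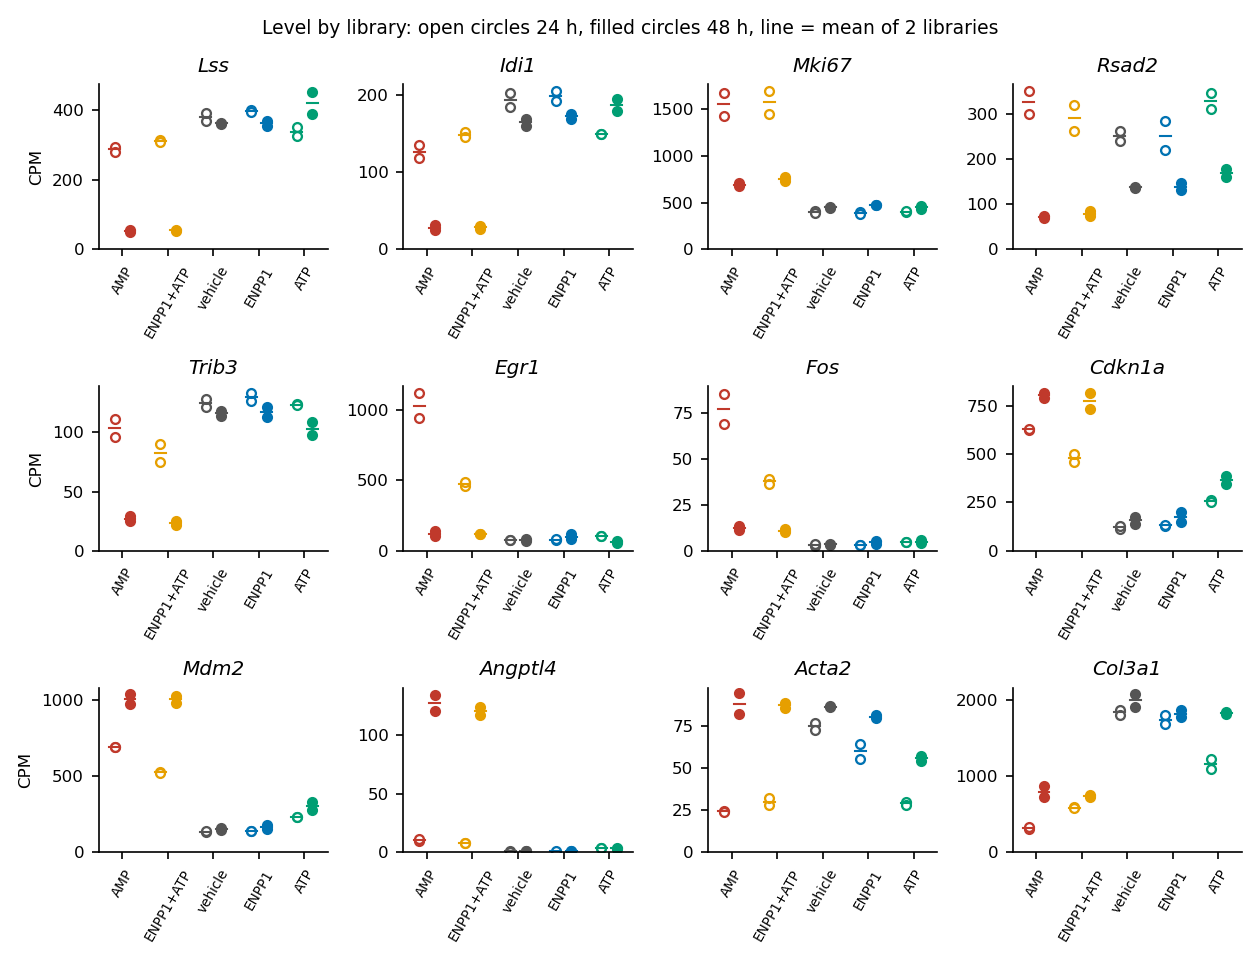
Level in CPM (y axis, from 0) of 12 genes in the 20 CF libraries, 1 panel per gene, by medium on the x axis, with open circles for the 2 libraries at 24 h, filled circles for the 2 at 48 h and a short line at their mean. Lss and Idi1 drop to under 60 CPM in the AMP-producing media and stay above 140 CPM in the other 3 media, Rsad2 drops in all 5 media, Egr1 and Fos start higher in AMP MCndM than in ENPP1+ATP MCndM and meet at 48 h, and Angptl4 rises from under 12 CPM to 116 to 134 CPM.

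The 2 AMP-producing media moved alike but not identically. In AMP MCndM 7708 genes changed (43.1%) and in ENPP1+ATP MCndM 7270 (40.7%), and these comparisons share no library. Both media called 5298 genes, which was 68.7% of the calls of AMP MCndM and 72.9% of those of ENPP1+ATP MCndM, with 5254 in the same direction. Over the 9895 genes whose mean log2 CPM reached 3, the 2 time changes had a Pearson correlation of 0.90, and over all 17879 genes one of 0.48, given as a description across genes, which are not independent replicates.

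The time change differed between AMP and ENPP1+ATP MCndM for 507 genes (2.84%), higher in AMP MCndM for 345 (1.93%) and lower for 162 (0.906%). This count moved with the samples used, with 191 genes when replicate 1 of ENPP1+ATP at 24 h was left out, 285 without replicate 1 of AMP at 48 h, 299 without replicate 2 of ENPP1+ATP at 24 h, 858 without replicate 2 of AMP at 24 h, and 64 (31 higher, 33 lower) when only the 8 libraries were fitted. Among genes whose mean log2 CPM reached 1, 266 were higher and 237 lower. Calls of this difference for single genes and lists, here and elsewhere in the text, were not checked in these alternative fits. In 367 of the 507 genes (72.4%) the gap between the media was larger at 24 h than at 48 h, as it was in 54.3% of all genes tested. Of 30 immediate early genes 9 fell further in AMP MCndM and 1 went the other way. Egr1 changed by -3.08 in AMP MCndM and by -1.94 in ENPP1+ATP MCndM, a difference of -1.14 (adjusted p = 0.0397), and for Fos the difference was -0.84 (adjusted p = 0.0158). Lcn2, an iron-binding acute phase protein, differed by -1.02 (adjusted p = 0.00774), and Plaur, the urokinase receptor, by -0.99 (adjusted p = 0.00209).

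The opposite pattern was found for matrix genes, with 8 of 28 collagens and 9 of 29 matricellular genes higher in the time change of AMP MCndM. Col3a1, fibrillar collagen III at chr1:45311538-45349706, stood at 312 and 335 CPM in AMP MCndM and at 594 and 577 CPM in ENPP1+ATP MCndM at 24 h, and at 867, 731, 730 and 754 CPM at 48 h. It rose by 1.30 in AMP MCndM and by 0.34 in ENPP1+ATP MCndM, a difference of 0.96 ± 0.09 (adjusted p = 4.78e-06), and stayed below the other 3 media, which held 1097 to 1875 CPM at 24 h and 1777 to 2078 CPM at 48 h. Adamts5, an aggrecan-cleaving protease, went from 118 and 129 CPM to 412 and 359 CPM in AMP MCndM and from 216 and 220 CPM to 372 and 354 CPM in ENPP1+ATP MCndM, a difference of 0.90 (adjusted p = 6.25e-07). Its mean in the other 3 media was 489.7 CPM at 24 h and 526.5 CPM at 48 h. Slc24a3, a sodium-calcium exchanger, and Prss23, a serine protease, differed by 0.97 and 0.87. Lrrc39 was the reverse, with 13.0 and 10.2 CPM turning into 12 and 15.3 CPM in AMP MCndM and 6.78 and 7.11 CPM into 15.4 and 17.4 CPM in ENPP1+ATP MCndM, a difference of -1.0 (adjusted p = 0.016).

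**Figure D5:**
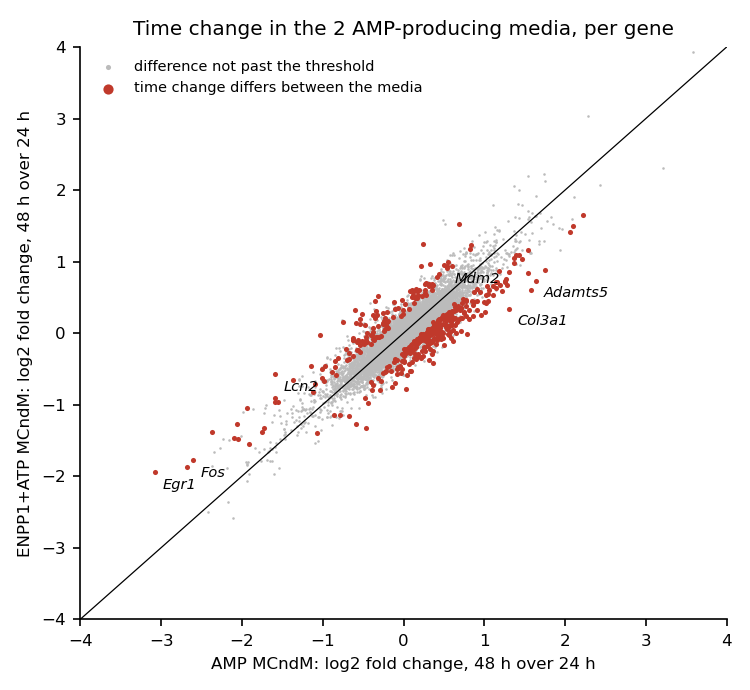
Log2 fold change, 48 h over 24 h, in AMP MCndM (x axis) against ENPP1+ATP MCndM (y axis) for the 9895 genes whose mean log2 CPM reached 3, 1 point per gene, with the 418 genes whose time change differed between the media in red and the line of equal change in black. Most genes lie along the line, Egr1 and Fos lie above it at negative values, and Col3a1 and Adamts5 lie below it at positive values.

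Fibroblasts lay down and remodel matrix, and activated ones contract. Of 28 collagens tested 17 rose and 3 fell, with a median of 0.23 against 0.04 in the other 3 media. Beside Col3a1, Col27a1 and Col5a1 rose by 1.11 and 0.89, and Col7a1 of the anchoring fibrils fell by 0.45. Col5a1 had a mean of 289.9 CPM at 24 h and 537.1 CPM at 48 h, against 723 and 644.8 CPM in the other 3 media. Col1a1 rose by only 0.13 ± 0.04 (adjusted p = 0.00404), from 1942, 2093, 2336 and 2245 CPM to 2459, 2403, 2184 and 2376 CPM, with overlap between the times and a change of -0.01 in ENPP1+ATP MCndM. At 48 h Col1a1 stayed below the other 3 media, which held 3555 to 3833 CPM.

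Of 24 matrix proteases and inhibitors 16 rose and 4 fell, with a median of 0.57 against 0.12. Mmp14, the membrane collagenase, rose from 352, 383, 446 and 439 CPM to 880, 898, 871 and 920 CPM, a change of 1.15 ± 0.04 (adjusted p = 1.41e-17), and Timp3, a matrix-bound inhibitor, rose by 1.18 from 131 to 167 CPM to 308 to 355 CPM. Mmp17 fell by 1.70. Of 10 small leucine-rich proteoglycans tested 7 rose and 1 fell, with a median of 0.71 that was 0.33 without replicate 1 of ENPP1+ATP at 48 h. Ogn and Podn rose by 1.34 and 1.31. Fmod fell by 1.06 with overlap between the times, at -1.83 in ENPP1+ATP MCndM and -0.28 in AMP MCndM (adjusted p = 0.427), a difference of 1.54 (adjusted p = 0.0404). Of 29 matricellular genes 16 rose and 5 fell, with a median of 0.28 that was 0.12 without replicate 2 of AMP at 48 h, 0.15 without replicate 1 of AMP or of ENPP1+ATP at 24 h and 0.18 without replicate 2 of ENPP1+ATP at 24 h. Has2, a hyaluronan synthase, and Vcan, the proteoglycan versican that binds hyaluronan, rose by 1.30 and 1.22, while Ctgf and Cyr61, both targets of YAP and serum response factor, fell by 1.30 and 0.71 on the log2 scale.

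Of 29 contractile genes 21 rose and 3 fell, with a median of 0.28 and one of -0.01 in the other 3 media, and the time change was higher in the AMP-producing media for 20. Acta2, smooth muscle actin at chr19:34241090-34255590 and the usual marker of myofibroblasts, stood at 24.6, 24.3, 28.1 and 32.4 CPM at 24 h and at 94.5, 82.2, 85.8 and 88.9 CPM at 48 h. The 2 sets lay wide apart. The change was 1.69 ± 0.05 (adjusted p = 7.29e-18), against 0.52 in the other 3 media, whose libraries ran from 28.2 to 77.2 CPM at 24 h and from 54.4 to 87.0 CPM at 48 h. Of these, ATP MCndM lay lowest, with 30.2 and 28.2 CPM at 24 h and 54.4 and 57.6 CPM at 48 h. Des and Fhl2 rose by 1.28 and 1.19, and Mylk, the kinase of myosin light chain, fell by 0.90. Of 42 genes of TGF-beta and BMP signalling 26 rose and 8 fell, with a median of 0.33 against 0.04. The ligand genes Inhbb, Bmp6 and Bmp4 rose by 1.68, 1.48 and 0.98, of which Inhbb went from 14.2 to 17.3 CPM to 47.9 to 53.5 CPM. Bmp6 had a mean of 8.2 CPM at 24 h and 22.7 CPM at 48 h, against 25.1 and 28.3 CPM in the other 3 media. For Bmp4 the means were 14.5 and 28.2 CPM, against 54.8 and 66.2 CPM, so both stayed below the other 3 media at 48 h. The ligand gene Gdf11 fell by 0.34 and the target gene Id2 by 0.38 on the log2 scale.

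Cytosolic ribosomal protein genes rose together. Of 77 members 74 rose and 1 fell, with a median of 0.48, while in the other 3 media none rose, 30 fell and the median was -0.08, and the time change was higher in the AMP-producing media for 75. Rps28 stood at 244, 247, 204 and 203 CPM at 24 h and at 422, 406, 380 and 435 CPM at 48 h, a change of 0.88 ± 0.05 (adjusted p = 4.68e-11). Rpl13a and Rps27 rose by 0.92 and 0.79. Rplp0, a stalk protein of the large subunit, was the member that fell, by 0.13. Ribosomal protein genes have many near-identical processed pseudogenes, and how reads shared with them were counted is not given in the sources used here.

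Of 13 mitochondrially encoded mRNAs 7 rose and 1 fell, with a median of 0.32 against 0.04, and with 0.19 to 0.51 when single libraries were left out. mt-Cytb, cytochrome b, rose from 3133, 2788, 2720 and 2795 CPM to 4322, 5098, 5073 and 4912 CPM, a change of 0.76 ± 0.05, and mt-Nd5 and mt-Nd4 by 0.68 and 0.64. mt-Nd6, which lies on the other strand, fell by 0.55 (adjusted p = 0.0329), and kept its call in 7 of 14 alternative fits. Larger but less even was the mitochondrial ribosomal RNA mt-Rnr2, with 10960, 2721, 3679 and 7838 CPM at 24 h and 16570, 13020, 18870 and 21110 CPM at 48 h, a change of 1.45 ± 0.43 (adjusted p = 0.0143) that lost its call without replicate 1 of ENPP1+ATP at 24 h (adjusted p = 0.0578) and when the 8 libraries were fitted alone (adjusted p = 0.0825). Rn7sk and Rpph1, short nuclear RNAs transcribed by RNA polymerase III, rose by 1.77 and 1.61 with the same unevenness, from 9.57 to 24.2 CPM and from 5.90 to 12.7 CPM at 24 h. With mitochondrial and these abundant non-coding RNAs taken out of the counts, 9361 genes changed with time.

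The single gene with the largest rise among those whose mean log2 CPM reached 3 was Angptl4, a secreted inhibitor of lipoprotein lipase at chr17:33773750-33781830. It stood at 9.92, 11.1, 7.78 and 8.01 CPM at 24 h and at 134, 120, 124 and 116 CPM at 48 h, and at under 4 CPM in every library of the other 3 media. The change was 3.75 ± 0.08 (adjusted p = 1e-21), a level 13.5-fold higher, and its time change exceeded that of the other 3 media by 3.70 (adjusted p = 2.8e-15). Fndc1, a fibronectin domain protein, rose by 2.76 from 6.66 to 15.5 CPM to 63.1 to 71.6 CPM, Sprr1a, a cornified envelope protein also known from stressed cells, by 2.66, Nrep by 2.25, Plxdc2 by 2.01, Matn4, a matrilin, by 1.98, and Mn1 by 1.94. Abca1, which exports cholesterol to apolipoproteins, rose from 39.1, 47.2, 51.9 and 47.1 CPM to 166, 201, 143 and 155 CPM, a change of 1.84 ± 0.08 (adjusted p = 9.68e-11), and by 0.46 in the other 3 media. Its mean in the other 3 media was 124.8 CPM at 24 h and 170.6 CPM at 48 h, so the rise started from a lower level. Ces2e, Ckmt1 and Cemip, a carboxylesterase, a mitochondrial creatine kinase and a hyaluronan-degrading protein, rose by 1.93, 1.87 and 1.80. Cemip had a mean of 26.2 CPM at 24 h and 91.5 CPM at 48 h, against 100.6 and 106.5 CPM in the other 3 media.

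The largest falls were ranked among genes whose mean log2 CPM reached 3 and whose times did not overlap, leaving out predicted genes. Apart from sterol, interferon and immediate early genes, Nabp1, a single-strand DNA binding protein, fell most, at -2.28 ± 0.11. Apobr, a receptor for apolipoprotein B48, followed at -2.12 ± 0.07, and Gch1, the first enzyme of tetrahydrobiopterin synthesis, at -1.94 ± 0.08. Enpp1 itself, at chr10:24637914-24712159, stood at 27.2, 24.0, 24.1 and 21.8 CPM at 24 h and at 6.56, 5.69, 9.89 and 9.04 CPM at 48 h. The change was -1.67 ± 0.10 (adjusted p = 5.8e-13), and the level at 48 h lay close to the other 3 media, which held 5.09 to 7.07 CPM at 24 h and 5.83 to 8.17 CPM at 48 h. The fall was steeper in AMP MCndM than in ENPP1+ATP MCndM, by 0.78 (adjusted p = 0.0337).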

How the data were processed

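RNA was sequenced from CFs kept in 1 of 5 MCndM for 24 h or 48 h, with 2 libraries per medium and time. The authors deposited raw counts per gene. Per the labels, the submitters' processing notes name STAR 2.5.3a and the builds mm10 and rn6. The counting program and its strand setting are not given in the sources used here, so overlapping and antisense genes are uncertain.

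Counts of all 20 CF libraries were scaled by TMM, filtered with filterByExpr and fitted with 1 mean per medium and time by edgeR 4.0.16 (quasi-likelihood, robust) in R 4.3.3. Contrasts averaged the 2 AMP-producing media or took their difference, or their difference from the other 3 media, with Benjamini-Hochberg adjustment over the 17879 genes tested of 30892 and a threshold of 0.05. Alternatives were DESeq2 1.42.0, RLE size factors, other filters, the 8 libraries alone, a replicate block and leaving out each library. The fit was tested on simulated data.

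The comparison and the gene lists were chosen with earlier results of these data known. Genes named were the 12 largest rises and 12 largest falls whose mean log2 CPM reached 3 and whose 24 h and 48 h libraries lay apart, the largest differences from the other media and between the 2 media, and in each list the largest rises and falls and a few fixed members. Counts over the sterol list cover all its members, of which some, and 1 gene of another list, are not reported here by name. Promoters came from RefSeq (GRCm38.p6) and gene positions from the mm10 annotation.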

Additional observations from a re-analysis of the deposited data

Results flagged for a closer look

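A test of the difference itself separated the time change of the AMP-producing media from that of the other 3 media for 8101 genes, and the time change of AMP from that of ENPP1+ATP MCndM for 507 genes. Among the genes named for it, the time change was higher than in the other 3 media by 3.70 for Angptl4, 2.92 for Sprr1a, 2.51 for Rn7sk, 2.39 for Rpph1, 2.29 for mt-Rnr2 and 2.19 for Nrep on the log2 scale. It was lower for Lss (-2.50), Fos (-2.48), Egr1 (-2.41), Fdps (-2.33), Idi1 (-2.23) and Nabp1 (-2.19).

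Between AMP and ENPP1+ATP MCndM the difference was 0.97 for Slc24a3, 0.96 for Col3a1, 0.90 for Adamts5 and 0.87 for Prss23, and -1.14 for Egr1, -1.02 for Lcn2, -1.0 for Lrrc39, -0.99 for Plaur, -0.84 for Fos and -0.81 for Nabp1. Of these genes, the time change of Egr1, Fos and Nabp1 also differed from the other 3 media, as given above. It differed as well for Prss23 (1.76), Adamts5 (1.07), Slc24a3 (0.95), Lrrc39 (0.71), Col3a1 (0.54) and Lcn2 (-1.25).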

How the results depend on the processing

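The count of genes changed in the AMP-producing media ran from 8722 to 9476 when single libraries were left out and was 1649 when a log2 change of at least 1 was also asked for. With the 8 libraries alone it was 7517, and among genes whose mean log2 CPM reached 1 it was 8048. Leaving out single libraries gave 191 to 858 genes for the difference between AMP and ENPP1+ATP MCndM, the 8 libraries alone gave 64 and no filter on low counts gave 884. The cause was not tested, except that the smaller fits use fewer samples. The other counts over all genes stayed within 1.5 times their values. Of the counts within lists, histone falls were 8 instead of 16 among genes whose mean log2 CPM reached 1, and histone rises ran from 0 to 4 over the alternatives instead of 1. With the 8 libraries alone, repair rises were 3 instead of 5, matrix protease falls 2 instead of 4 (also without replicate 1 of ENPP1+ATP at 48 h) and contractile falls 1 instead of 3 (also among genes whose mean log2 CPM reached 1 and without replicate 2 of AMP at 24 h, or of ENPP1+ATP at 48 h, or replicate 1 of ENPP1+ATP at 24 h). Interferon-stimulated genes had 2 rises instead of 1 without replicate 2 of AMP at 24 h, and the fall of mt-Nd6 was lost in 7 fits.

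List medians moved by more than the spread between replicates when single libraries were left out for sterol synthesis (-1.30 to -1.20), repair (-0.25 to -0.21), deoxynucleotide supply (-0.27 to -0.24), p53 feedback (0.25 to 0.29), p53 death genes (0.18 to 0.28), purine genes (0.11 to 0.20), small leucine-rich proteoglycans (0.33 to 0.75), matricellular genes (0.12 to 0.32) and matrix proteases (0.50 to 0.60). Without a filter on low counts the median was -0.25 for deoxynucleotide supply, -1.0 for immediate early genes and 0.32 for small leucine-rich proteoglycans. Among genes whose mean log2 CPM reached 1 it was -0.0843 for pyrimidine genes, 0.34 for collagens, 1.02 for small leucine-rich proteoglycans and 0.35 for contractile genes, and with the 8 libraries alone 0.98 for small leucine-rich proteoglycans. Bbc3, which did not pass the test, ran from -0.0051 to 0.092 when single libraries were left out. Col1a1 lost its call with the 8 libraries alone (adjusted p = 0.0692).

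Over all genes tested, same-numbered libraries of the 4 groups of the AMP-producing media deviated together with correlations of 0.0006729 to 0.03024. Over all 10 CF groups the correlations ran from -0.112 to 0.277 (median 0.0125). They include the noise of genes with low counts, so they cannot settle whether replicate numbers pair the libraries. With the replicate block 9476 genes changed in the AMP-producing media, 7820 in AMP and 7382 in ENPP1+ATP MCndM, 4520 in the other 3 media, 8229 differed from the other 3 media and 646 between AMP and ENPP1+ATP MCndM.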

Other observations

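A list of fatty acid oxidation genes and targets of PPAR factors was added after the values were seen. Of its 41 genes tested 24 rose and 5 fell, where 26.1% and 26.4% of all tested genes did. The median was 0.34 against 0.03 in the other 3 media, where 7 rose and 1 fell. The time change was higher in the AMP-producing media for 20 genes of the list and lower for 6. Of all tested genes, 22.8% were higher and 22.5% lower in that test. Cpt1a, which carries fatty acids into mitochondria, stood at 146, 144, 169 and 169 CPM at 24 h and at 365, 395, 348 and 373 CPM at 48 h in AMP and then ENPP1+ATP MCndM. The 2 times did not overlap, and the change was 1.24 ± 0.03 (edgeR's quasi-likelihood test, adjusted p = 6.04e-19), against 0.03 in the other 3 media. Pdk4, the kinase that restrains pyruvate dehydrogenase, went from between 19.6 and 21.4 CPM to between 59.0 and 67.4 CPM, a change of 1.64 ± 0.06 (adjusted p = 3.11e-17). Lipe, hormone-sensitive lipase, and Acaa1b, a peroxisomal thiolase, rose by 1.72 and 1.67, while Pnpla2, a triglyceride lipase, fell by 0.55 and the mitochondrial oxidation enzymes Hadhb and Acadm fell by 0.29 and 0.22 on the log2 scale.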
